A study of Mus musculus with 11 samples.

Results

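The fasting response of the hypothalamus was set against that of the cerebellum with all 11 arrays of the 11 in the series. For each probe the difference between regions is the fasted minus fed change in hypothalamus minus the fasted minus fed change in cerebellum, both on the log2 scale, so that a positive value is a change more positive in hypothalamus. The groups were hypothalamus of fed mice (3 arrays), hypothalamus of mice fasted for 16 hours (3 arrays), cerebellum of fed mice (3 arrays) and cerebellum of mice fasted for 16 hours (2 arrays, as a further array was dropped at quality control). All mice were wild-type females of the SV/129 strain, aged 10 weeks, with water freely available, and the fed mice kept their chow while the others lost it at the start of the dark phase. Each group is 1 RNA pool made from 6 mice, and its arrays (CodeLink Mouse Whole Genome Bioarrays, a single-colour platform read through biotin-labelled cRNA and Cy5) are repeat hybridisations of that pool. The spread between arrays therefore holds labelling and hybridisation error and no variation between mice, so every test below compares 4 pools. Between pools themselves no error term for the difference between regions can be had.

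The hypothalamus holds the arcuate neurons that read leptin, insulin and ghrelin and set food intake through neuropeptides such as agouti-related peptide, neuropeptide Y and the products of Pomc. The cerebellum, built mainly of granule cells and Purkinje cells, is not a centre of appetite and serves as a second brain region that met the same hormones and fuels during the fast. A long fast raises glucocorticoids and ketone bodies and lowers insulin and leptin throughout the body. A difference between regions shows where the same gene changed by unequal amounts or in opposite directions, which neither region shows alone.

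The deposited values are ratios in which each probe's fed median was 1 within its own region, for 34999 of 34999 probes in both regions. They hold no signal level, so the labelled tissue could not be checked against its markers, and no level is compared between probes or regions. In the median probe the SD between arrays was 0.0637 to 0.0866 (log2) over the 4 groups. In bulk RNA, fewer cells of a type and less RNA per cell cannot be told apart. Values below are array ratios divided by the array's median ratio ("scaled ratio", fed about 1), and changes are log2 with their SE. Each p is a two-sided limma p with Benjamini-Hochberg adjustment over all 34999 probes, and "called" means an adjusted p under 0.05.

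The fasting change differed between regions at 6184 probes, 17.7% of those tested. It was more positive in hypothalamus at 3032 probes (8.66%) and more negative at 3152 (9.01%). The median size of the difference was 0.467 among called probes and 0.186 among all probes, and 2064 probes (5.9%) were called with a difference of at least 1.5-fold, 888 more positive and 1176 more negative in hypothalamus. Most of these probes were called in cerebellum and not in hypothalamus. Cerebellum alone fell at 1935 probes (31.3% of the 6184) and alone rose at 1499 (24.2%), whereas hypothalamus alone fell at 820 (13.3%) and alone rose at 511 (8.26%). Both regions changed in the same direction, with the larger change in cerebellum, at 128 probes (2.07%), and with the larger change in hypothalamus at 30 (0.485%). A further 581 probes were called for the difference with neither region's change called. Taken singly, 14.2% of probes were called in hypothalamus and 20.9% in cerebellum, where the test rests on 2 fasted arrays.

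Opposite changes, called in each region and for the difference, were found at 680 probes (1.94%). Hypothalamus rose and cerebellum fell at 222 of these (0.634%, 172 named genes), and hypothalamus fell and cerebellum rose at 458 (1.31%, 224 named genes). The first group was 32.6% of the 680 after median scaling, 20.9% of 723 with no scaling and 16.5% of 817 after scaling to the 75th percentile, so the split between the 2 directions depends on the scaling. The 75th percentile shifted the median change of all probes to -0.105 in hypothalamus and -0.123 in cerebellum. Quantile normalization, which gives every array 1 distribution, left 153 calls for the difference (79.1% more positive in hypothalamus) over all arrays and 128 (64.8%) within regions, and no opposite call. The interquartile range of log2 ratios was 0.016 to 0.0986 on fed arrays and 0.245 to 0.311 on fasted arrays. Fed arrays are ratios to the fed median of their own region, and 20.6% to 38.7% of their deposited ratios were exactly 1, against 0% on fasted arrays.

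**Figure D1:**
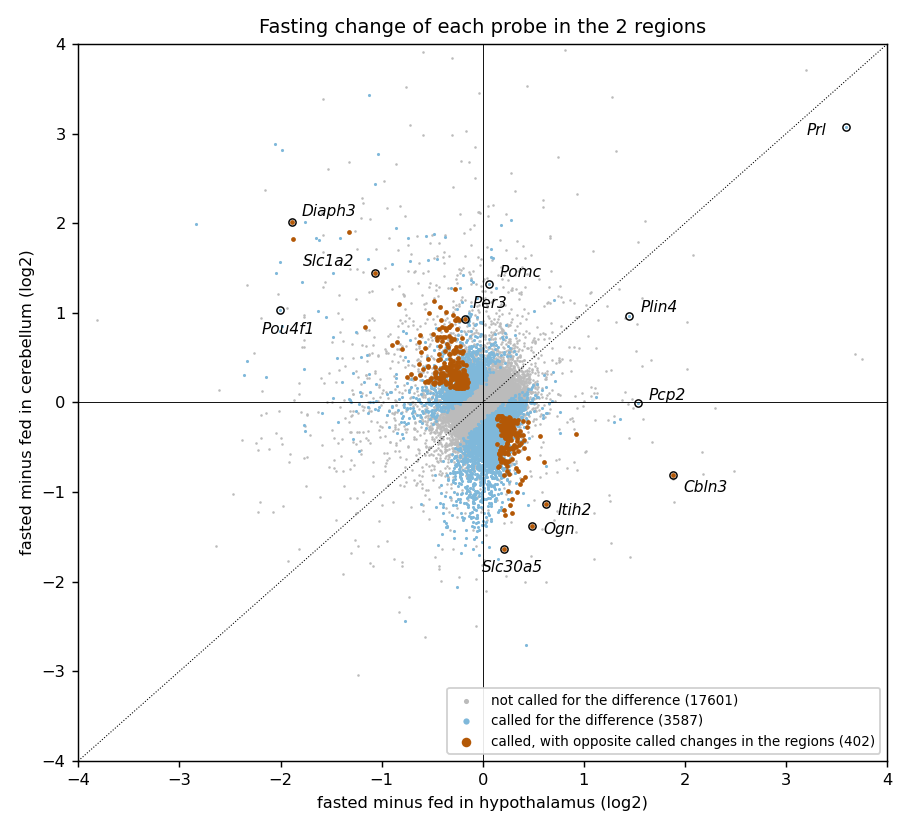
Fasted minus fed change (log2) of each probe with 1 gene symbol in hypothalamus (horizontal) and cerebellum (vertical); 21578 of 21590 named probes lie within the axes of 4 log2 units either way. Probes called for the difference lie off the diagonal, and the 402 called with opposite changes fill the upper left and lower right of the plot, against 3587 called and not opposite and 17601 not called.

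Among the genes that rose in hypothalamus and fell in cerebellum, 8 were taken by the smaller of their 2 changes. Only genes whose fed and fasted arrays did not overlap in either region were eligible. Cbln3 encodes a cerebellin, a synapse-organising protein that cerebellar granule cells secrete. Its scaled ratios were 1.00, 0.83 and 1.00 on the fed and 3.52, 3.41 and 3.45 on the fasted hypothalamus arrays, and 1.00, 1.08 and 0.945 on the fed and 0.56 and 0.585 on the fasted cerebellum arrays. Fed and fasted arrays stood apart in both regions, which the rule required, high after fasting in hypothalamus and low in cerebellum. The changes were 1.88 ± 0.08 in hypothalamus and -0.81 ± 0.09 in cerebellum, a difference of 2.69 ± 0.12 (6.46-fold, adjusted p = 3.27e-05). A second Cbln3 probe rose in hypothalamus by 0.76 ± 0.05 but stood at -0.11 ± 0.06 in cerebellum (adjusted p = 0.25), where its fed and fasted arrays overlapped, so the opposite change was seen by 1 of the 2 probes.

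Ogn encodes osteoglycin, a small proteoglycan of connective tissue that fibroblasts of the meninges make. The fasted hypothalamus arrays read 1.39, 1.35 and 1.37 against 0.923 to 1.00 when fed, and the fasted cerebellum arrays read 0.371 and 0.404 against 0.974 to 1.06. Its difference was 1.87 ± 0.08 (adjusted p = 3.27e-05), of which the fall in cerebellum, -1.38 ± 0.06, was the larger share. Itih2, a heavy chain of the inter-alpha-trypsin inhibitors that stabilise hyaluronan, read 1.54, 1.63 and 1.44 in fasted hypothalamus and 0.453 and 0.432 in fasted cerebellum. It rose by 0.63 ± 0.08 in the first and fell by 1.13 in the second, a difference of 1.76 ± 0.12 (adjusted p = 6.61e-05). Slc47a1, a transporter that extrudes drugs and toxins, read 1.54, 1.53 and 1.42 against 0.595 and 0.66, with changes of almost equal size, 0.60 ± 0.05 and -0.66 ± 0.06. Slc22a4, a carrier of organic cations and ergothioneine, changed by 0.41 ± 0.07 and -0.83 ± 0.08. Mbtps1, the site-1 protease that cleaves the membrane-bound precursors of SREBP and ATF6, changed by 0.40 ± 0.08 and -0.51 ± 0.08, while its second probe gave 0.19 and -0.03 and was not called for the difference (adjusted p = 0.218). Med12, a subunit of the Mediator complex that links transcription factors to RNA polymerase, changed by 0.41 ± 0.08 and -0.41 ± 0.08, and its second probe pointed the other way, 0.08 and 0.32, without a call for the difference (adjusted p = 0.225). Map7, a microtubule-associated protein, changed by 0.45 and -0.62.

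Among the 8 genes that fell in hypothalamus and rose in cerebellum, taken by the same rule, Slc1a2 had the smallest error. It encodes GLT-1, the main astrocyte transporter that clears glutamate from the synapse. Fed arrays read 0.864 to 1.07 in hypothalamus and 0.981 to 1.11 in cerebellum. Fasted arrays read 0.47, 0.459 and 0.47 in hypothalamus, below every fed array, and 2.97 and 2.63 in cerebellum, above every fed array. The changes were -1.06 ± 0.09 and 1.44 ± 0.10, a difference of -2.51 ± 0.13 (adjusted p = 3.27e-05). The other Slc1a2 probes were not called for the difference. The probe with the smallest spread changed by -0.18 in hypothalamus and -0.12 in cerebellum, a difference of -0.06 (adjusted p = 0.519), and the last had the same signs, -1.42 and 1.19, with a wide spread between arrays (adjusted p = 0.177).

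The 3 largest differences among these 8 had the largest errors. Diaph3, a formin that nucleates actin filaments, read 0.237, 0.206 and 0.377 in fasted hypothalamus, but 6.83 and 2.28 in fasted cerebellum, and its fed cerebellum arrays ran from 0.65 to 1.43. Its difference was -3.90 ± 0.66 (adjusted p = 0.00432). The uncharacterised transcripts 1700095A13Rik and 1700030M09Rik followed with -3.70 ± 0.52 and -3.23 ± 0.47. Fam71f1, Gm16835, 4930431F12Rik and Prss43 had differences from -2.01 to -1.53. The Gm16835 second probe gave -0.04 in hypothalamus and 0.40 in cerebellum, the same sign of difference at a smaller size (-0.44, adjusted p = 0.00851).

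Ranked by the moderated t of the difference instead, genes with smaller but tighter changes came forward. Cask, a scaffold that ties synaptic adhesion proteins to the release machinery, read 0.726, 0.698 and 0.693 in fasted hypothalamus and 1.72 and 1.63 in fasted cerebellum, where all fed arrays lay between 0.94 and 1.03. Its difference was -1.25 ± 0.07 (adjusted p = 3.98e-05), but its other 2 probes gave differences of 0.28 (adjusted p = 0.023) and 0.10 (adjusted p = 0.477), opposite in sign to the first. The Cask probe with the difference of 0.28 fell in cerebellum by 0.40 (adjusted p = 0.000723), where the first probe rose. Rbfox2, a splicing factor of neurons and muscle, changed by -0.33 ± 0.04 and 0.84 ± 0.05, and its second probe by -0.25 and -0.10 (difference not called, adjusted p = 0.527). Septin11, a filament-forming GTPase of dendrites, changed by -0.32 and 0.86, and 1 of its other 2 probes was called the same way (difference -0.51, adjusted p = 0.0017). Slc25a27, a mitochondrial carrier of the uncoupling protein family, changed by -0.30 and 0.97, which its second probe did not repeat (-0.08 and 0.02, difference adjusted p = 0.41), and the uncharacterised 9530059O14Rik by -0.24 and 0.92. Per3, a period gene of the circadian clock, read 0.904, 0.881 and 0.865 in fasted hypothalamus and 1.89 and 1.92 in fasted cerebellum. The difference was -1.11 ± 0.06 (adjusted p = 3.27e-05), almost all of it from the cerebellum, and the other 2 Per3 probes gave differences of -0.28 (adjusted p = 0.114) and 0.33 (adjusted p = 0.545).

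**Figure D2:**
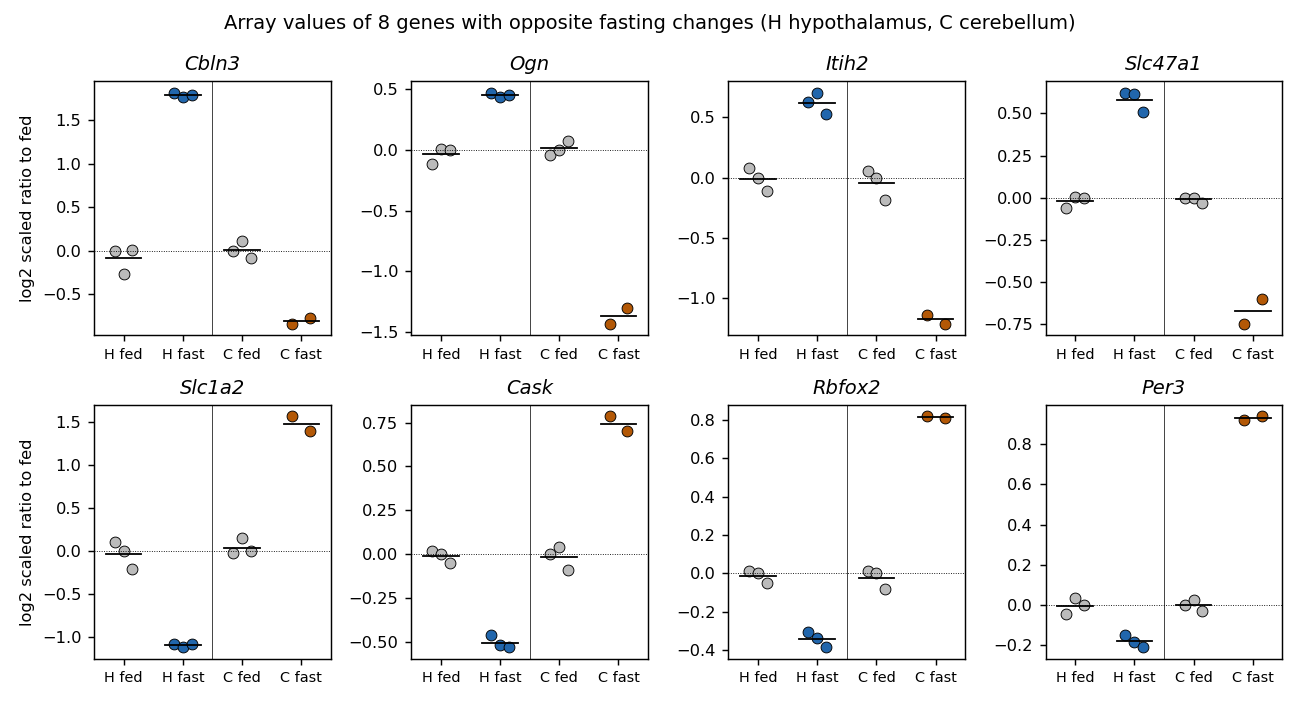
Log2 scaled ratio (vertical axis, a scale for each gene) on each of the 11 arrays for 8 genes with opposite fasting changes; points are arrays and bars are group means. The fasted hypothalamus arrays of Cbln3, Ogn, Itih2 and Slc47a1 lie above and their fasted cerebellum arrays below all fed arrays, and Slc1a2, Cask, Rbfox2 and Per3 show the reverse order. The naming rules took only genes whose fed and fasted arrays did not overlap, in both regions or in either.

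In the other direction the tightest differences were falls in cerebellum. Slc30a5, which carries zinc into the secretory pathway, read 0.304 and 0.319 in fasted cerebellum against 1.15, 1.19 and 1.14 in fasted hypothalamus, a difference of 1.84 ± 0.08 (adjusted p = 3.27e-05). Its rise in hypothalamus was small, 0.21 ± 0.05. Axl, a receptor tyrosine kinase for the ligand Gas6, had the same form, 0.21 ± 0.04 and -1.20 ± 0.04. Hacd3, a dehydratase of very-long-chain fatty acid elongation, fell in cerebellum by 1.64, Pcsk6, a proprotein convertase, by 1.70, Sgpp1, which dephosphorylates sphingosine 1-phosphate, by 1.44, and Clvs1, which encodes clavesin, a phosphoinositide-binding protein of endosomes, by 1.34. None of these 4 was called in hypothalamus, where they stood between -0.10 and -0.04. The second Pcsk6 probe did not show the fall (-0.04 and -0.14, difference adjusted p = 0.503).

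Of the 37 genes with opposite changes that the naming rules gave, 14 kept both regional calls and the difference under every alternative other than quantile normalization. They were Cbln3, Itih2, Slc47a1, Ogn, Slc22a4, Mbtps1, Fmod and Aldh1a2 (hypothalamus higher) and Slc1a2, Cask, Rbfox2, Septin11, Slc25a27 and 9530059O14Rik (hypothalamus lower). Each gene was followed at its named probe only. Other probes of Cbln3, Mbtps1, Slc1a2, Cask, Rbfox2 and Slc25a27 had no opposite changes called, and a Cask probe was called for a difference of the other sign (0.28). Med12 and 1700095A13Rik lost the cerebellar call without replicate 1 of the fasted cerebellum (adjusted p = 0.0507 and 0.0619). Map7 lost a call without replicate 1 of the fed hypothalamus or replicate 2 or 3 of the fasted hypothalamus, and Per3 without replicate 2 of the fed hypothalamus or replicate 2 or 3 of the fasted hypothalamus (hypothalamus adjusted p up to 0.0667 and 0.0722). 1700030M09Rik lost one without replicate 1 or 2 of the fed or 2 or 3 of the fasted hypothalamus (up to 0.0916), and 4930431F12Rik without replicate 2 of the fed or either fasted cerebellum array (up to 0.0905). Diaph3, Fam71f1 and Gm16835 lost one when any of 6 single arrays was left out, with adjusted p up to 0.137, 0.186 and 0.11, and Prss43 when any of 4 was left out (up to 0.152). Prss43 also lost its cerebellar call after 75th percentile scaling (0.0625) and with array weights (0.114). Slc30a5 lost the hypothalamic call when any hypothalamus array was left out (up to 0.0942), with no scaling (0.067) and after scaling to the 75th percentile (0.222). Axl lost it after scaling to the 75th percentile (0.219). The difference itself stayed called for all of these genes with each single array left out.

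Gene lists were read as counts, with each gene represented by its probe of smallest spread. For members called within a single region, the only shares given here are those of all probes in either direction. These were 14.2% in hypothalamus and 20.9% in cerebellum, so regional counts by direction have no matching background. Of 18048 named genes, 19.1% were called for the difference, 11.4% more positive and 7.74% more negative in hypothalamus, with a median difference of 0.02, and 1.91% had opposite changes. The lists farthest from these shares were connective tissue markers on the positive side and thalamic markers on the negative side. The lists were chosen with earlier results of these data known, so this distance is a description and not a test. Markers of meninges, fibroblasts and pericytes were called in 15 of 24 measured members (62.5%), 14 more positive and 1 more negative in hypothalamus, with a median difference of 0.38. In hypothalamus 11 rose and none fell, and in cerebellum 9 fell and 1 rose. The median log2 ratio of the list ran from 0.154 to 0.233 on the fasted hypothalamus arrays and from -0.185 to -0.161 on the fasted cerebellum arrays. Opposite changes were called in 6 members. Beside Ogn these were Fmod, fibromodulin of the collagen matrix (0.37 ± 0.05 and -0.91 ± 0.06), Col1a2, a chain of type I collagen (0.35 ± 0.07 and -0.77 ± 0.08), Aldh1a2, which makes retinoic acid (0.35 and -0.54), and, noted after their values were seen, Col1a1 (0.24 and -0.55) and the organic anion transporter Slc22a6 (0.14 and -0.47). Fmod read 1.27, 1.40 and 1.29 in fasted hypothalamus and 0.544 and 0.521 in fasted cerebellum, with no overlap with the fed arrays. The member called the other way was Rgs5, a pericyte gene that stood at -0.22 in hypothalamus and rose by 0.59 in cerebellum. Dcn, another fibroblast marker, stood at 0.23 and 0.14 and was not called. Col1a2 lost its hypothalamic call without replicate 2 of the fasted hypothalamus (adjusted p = 0.0511).

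Endothelial markers were called in 6 of 16 members (37.5%), 4 more positive and 2 more negative in hypothalamus, and no member of the list was called in hypothalamus itself. Pecam1, an adhesion molecule of endothelial junctions, stood at 0.24 in hypothalamus and fell by 0.86 in cerebellum, a difference of 1.11 ± 0.17. Tek, the angiopoietin receptor, fell in cerebellum by 0.49 and Kdr, a VEGF receptor, by 0.32, whereas Ramp2, a subunit of the adrenomedullin receptor, rose by 0.30. Without replicate 2 of the fasted cerebellum Kdr was no longer called for the difference (adjusted p = 0.0579). Choroid plexus markers were called in 5 of 11 (45.5%), 4 more positive and 1 more negative. Kcnj13, a potassium channel of that epithelium, changed by 0.34 and -0.40, Kl, which encodes klotho, stood at 0.06 and fell by 0.65 in cerebellum, and Slc5a5, the iodide symporter, stood at 0.15 and fell by 0.42. Ttr, transthyretin, which is the most abundant choroid plexus transcript, went the other way, falling by 0.81 in hypothalamus with -0.12 in cerebellum (difference -0.69 ± 0.09, adjusted p = 0.00134). The rise of Kcnj13 in hypothalamus was not called after scaling to the 75th percentile (adjusted p = 0.0752) or when any hypothalamus array was left out, and its fall was not called without replicate 1 of the fasted cerebellum (0.108).

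**Figure D3:**
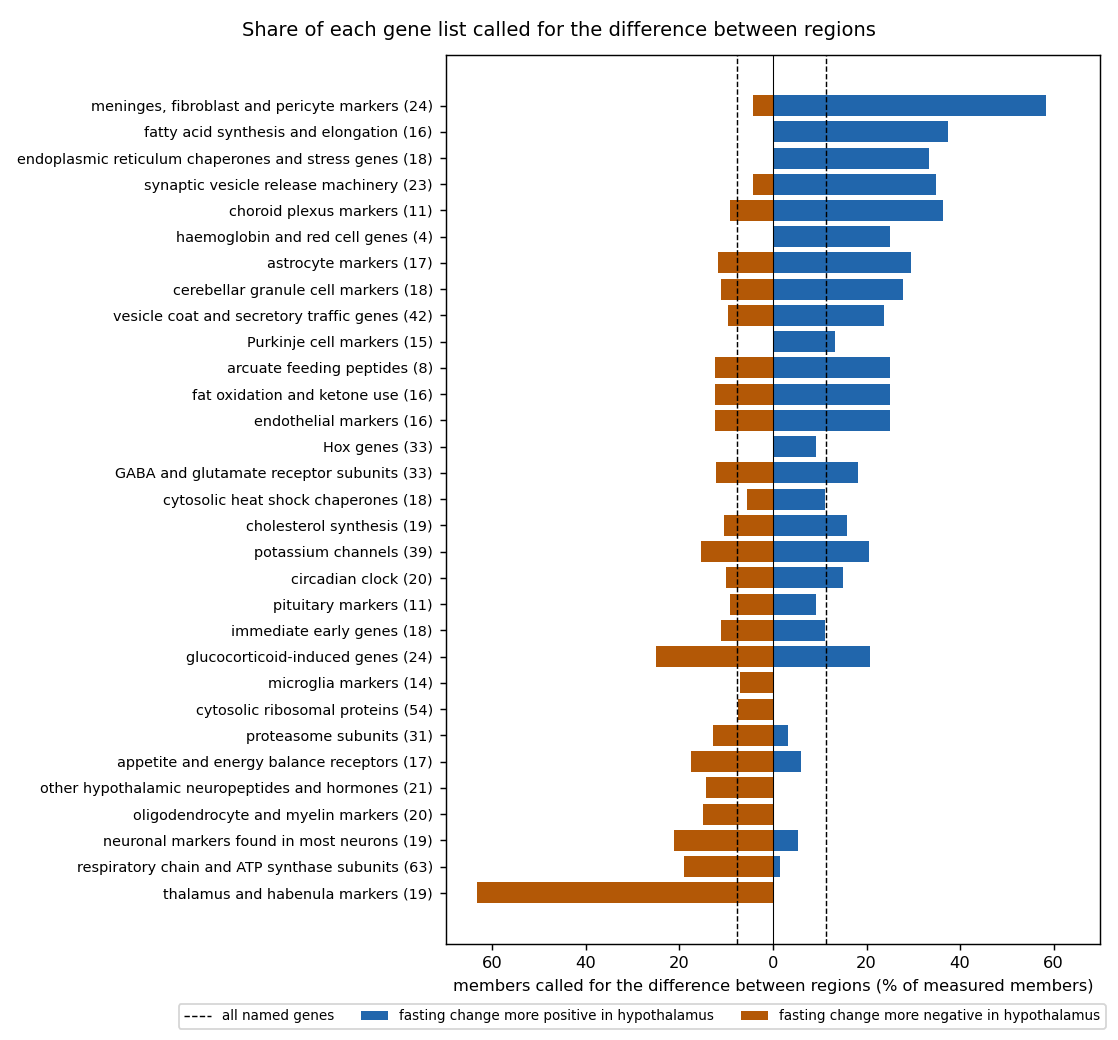
Share of the measured members of each of 31 gene lists (number of members in brackets) called for the difference, more positive in hypothalamus to the right and more negative to the left, in percent; dashed lines mark 11.4% and 7.74%, the shares of all named genes. Connective tissue markers reach 58.3% to the right and thalamus and habenula markers 63.2% to the left.

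Thalamus and habenula lie next to the hypothalamus, and their markers were called in 12 of 19 members, all 12 more negative in hypothalamus (63.2%, median difference -0.38). In hypothalamus 13 members fell, while in cerebellum 2 rose and 4 fell. Tcf7l2, a transcription factor of thalamic neurons, read 0.611, 0.611 and 0.666 in fasted hypothalamus and 1.10 and 1.02 in fasted cerebellum, a difference of -0.76 ± 0.08 (adjusted p = 0.000465). Gpr151, a receptor of habenular neurons, fell in hypothalamus by 0.73 with 0.11 in cerebellum (difference -0.84 ± 0.07). Pou4f1, a habenular transcription factor, read 0.303, 0.199 and 0.264 in fasted hypothalamus, but in cerebellum its fed arrays, 0.815, 2.76 and 1.00, overlapped the fasted ones at 2.54 and 2.82. Its difference of -3.04 ± 0.58 therefore rests on a spread that is wide in cerebellum. Tnnt1, a troponin, stood at -0.39 in hypothalamus and rose by 0.46 in cerebellum.

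Markers of the cerebellum's own neurons were measured in both regions. Granule cell markers were called in 7 of 18 members (38.9%), 5 more positive and 2 more negative in hypothalamus, with a median difference of 0.04. Fat2, a giant cadherin of granule cells, read 2.64, 2.61 and 2.46 in fasted hypothalamus and 0.793 and 0.928 in fasted cerebellum. It rose in hypothalamus by 1.36 ± 0.08 and stood at -0.18 in cerebellum, a difference of 1.54 ± 0.12, while its second probe, with a wide spread, gave -0.20 and 0.35 (adjusted p = 0.749). Slc17a7, the vesicular glutamate transporter of granule and many other neurons, fell in hypothalamus by 0.84, and Nrep, a regulator of neuronal growth, fell in cerebellum by 1.06. Gabra6, the receptor subunit that defines granule cells, stood at 0.38 and -0.39 with no call in either region. Purkinje cell markers were called in 2 of 15 (13.3%), both more positive in hypothalamus. Pcp2, a modulator of G proteins found in Purkinje cells, read 2.84, 2.99 and 2.67 in fasted hypothalamus against 0.85 to 1.09 when fed, and 0.984 and 1.00 in fasted cerebellum (difference 1.55 ± 0.16, adjusted p = 0.000354). Car8, which damps the inositol trisphosphate receptor, rose in hypothalamus by 0.59 with -0.06 in cerebellum, while its second probe stood at 0.09 in hypothalamus and fell by 0.44 in cerebellum (difference 0.53, adjusted p = 0.0125). In hypothalamus 3 granule cell markers rose and 5 fell, and 2 Purkinje cell markers rose and 1 fell. The median log2 ratio of each list lay between -0.143 and -0.0266 on the fasted hypothalamus arrays. Whether the markers of meninges, thalamus and cerebellar neurons have a part in the other differences was not tested.

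The chaperones of the endoplasmic reticulum fold secreted and membrane proteins and are raised together by the unfolded protein response. Their list also holds other genes of that response, such as Xbp1, Atf4 and Sel1l. It was called in 6 of 18 members (33.3%), all 6 more positive in hypothalamus, with a median difference of 0.16. In cerebellum 11 members fell and none rose, against 5 that fell and none that rose in hypothalamus, and the list's median log2 ratio was -0.331 to -0.291 on the fasted cerebellum arrays and -0.0889 to -0.0737 on those of hypothalamus. Hyou1, the chaperone also called GRP170, read 0.43 and 0.363 in fasted cerebellum and 0.98, 0.976 and 0.957 in fasted hypothalamus, a difference of 1.24 ± 0.12 (adjusted p = 0.000244). Canx, calnexin, which holds glycoproteins during folding, read 0.421 and 0.425 against 1.03, 0.953 and 0.939, a difference of 1.2 ± 0.08 (adjusted p = 6.96e-05). Its second probe did not show it (0.05 and -0.13, adjusted p = 0.466). Hspa5, the master chaperone BiP, read 0.549 and 0.533 against 1.05, 0.987 and 0.852, a difference of 0.78 ± 0.12 (adjusted p = 0.00282). Pdia4, a disulphide isomerase, fell in both regions, by 0.23 in hypothalamus and 0.82 in cerebellum. The list was not uniform: Xbp1, a transcription factor of the same response, fell by 0.24 and 0.29, and Calr, calreticulin, by 0.20 and 0.31, with no call for the difference.

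Promoter sequences of these genes are shown because the unfolded protein response acts through a known element, the ER stress element, CCAAT and CCACG with any 9 bases (N) between them, at which ATF6 binds with NF-Y. It was searched on both strands in the 250 bases before the start of each gene (RefSeq, GRCm38.p6). Of 32851 promoters, 37 held a match (0.113%), and of 16 list genes with a promoter entry 7 did (43.8%). The list holds genes of the response that the element serves, and the 37 include promoters of the list. The contrast is therefore a description and not a test. The members called for the difference and the others did not separate by a match: 2 of the 5 called genes with an entry (Hspa5 and Canx) held a match (40%), and so did Hsp90b1, Calr, Creld2, Dnajc3 and Syvn1, which were not called. The promoters of Hspa5 (chr2:34771840-34772089, plus strand) and Canx (chr11:50325674-50325923, minus strand) follow, 5′ to 3′ on the gene's strand, with the match in capitals, 65 to 47 bases before the start in Hspa5 and 145 to 127 in Canx.
Hspa5: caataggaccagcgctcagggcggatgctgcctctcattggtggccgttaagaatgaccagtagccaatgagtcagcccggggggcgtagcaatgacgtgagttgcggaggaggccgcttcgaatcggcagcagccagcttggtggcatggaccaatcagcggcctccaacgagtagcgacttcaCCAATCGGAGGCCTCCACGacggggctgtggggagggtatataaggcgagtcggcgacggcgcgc
Canx: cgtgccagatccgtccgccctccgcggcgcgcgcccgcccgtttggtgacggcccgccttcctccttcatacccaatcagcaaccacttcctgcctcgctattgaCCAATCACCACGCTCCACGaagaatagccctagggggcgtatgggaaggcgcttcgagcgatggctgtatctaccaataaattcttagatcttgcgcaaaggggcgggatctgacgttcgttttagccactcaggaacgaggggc
Both carry the element in the same orientation. So do the promoters of Dnajc3 and Syvn1, which stood at 0.03 and -0.07 in cerebellum and were not called for the difference. Hspa5 and the first Canx probe fell in cerebellum with no call in hypothalamus, while the second Canx probe stood at -0.13 in cerebellum. Whether the element has a part in these changes was not tested. A match is a description of the letters and not a measured site.

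**Figure D4:**
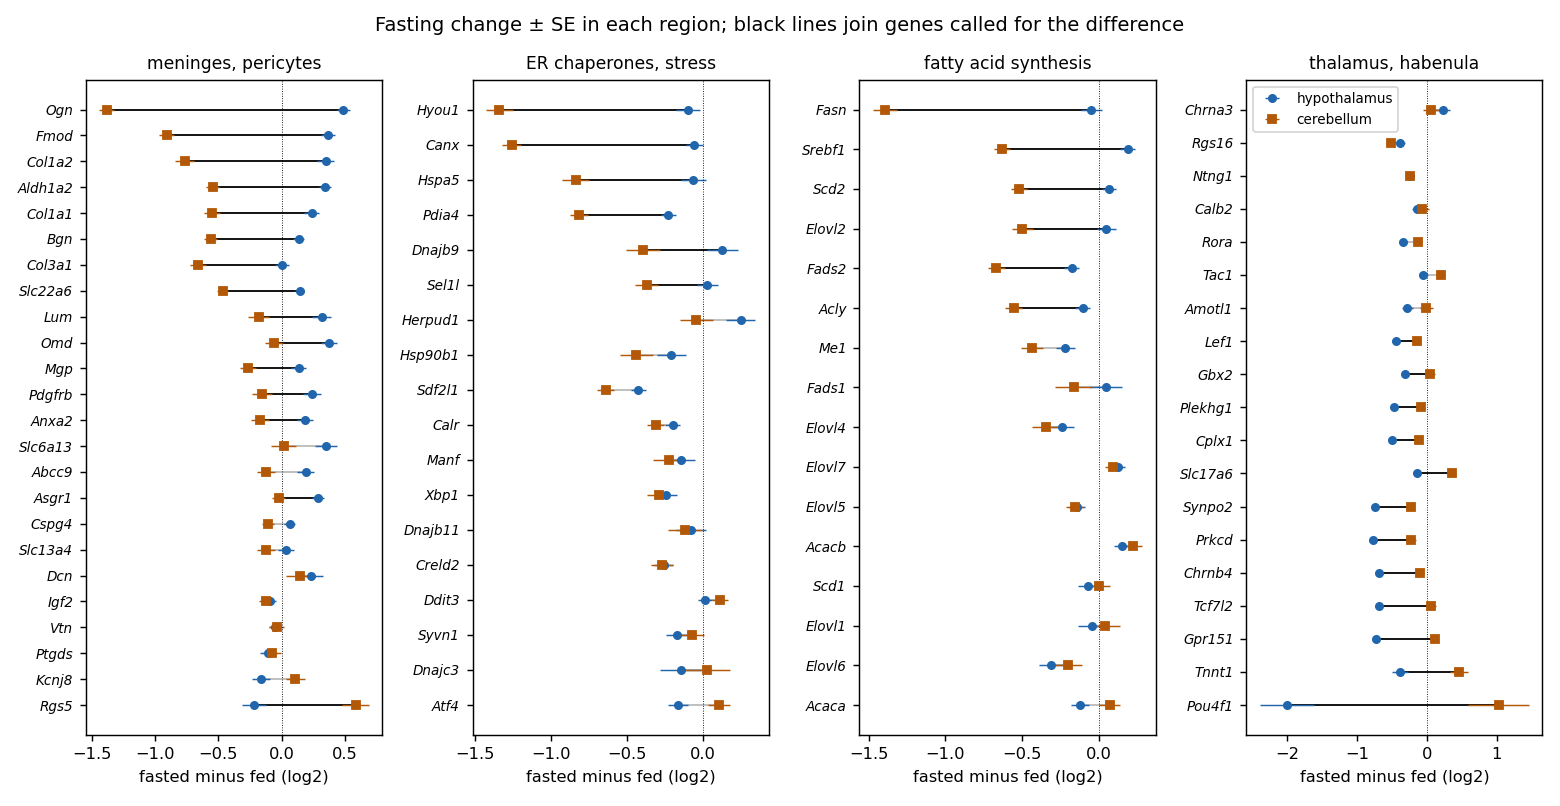
Fasted minus fed change (log2, horizontal) ± SE of every measured member of 4 lists in hypothalamus (circles) and cerebellum (squares), genes sorted by the difference within each list. Black lines join genes called for the difference: 15 of 24 connective tissue markers, 6 of 18 ER chaperones and stress genes and 6 of 16 fatty acid synthesis genes, mostly with the cerebellum lower, and 12 of 19 thalamus and habenula markers, all with the hypothalamus lower.

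Genes of fatty acid synthesis and elongation were called in 6 of 16 members (37.5%), all 6 more positive in hypothalamus (median difference 0.16). In cerebellum 8 fell and 1 rose, and in hypothalamus 2 fell and 1 rose. Fasn, fatty acid synthase, read 0.345 and 0.389 in fasted cerebellum and 0.981, 0.974 and 0.958 in fasted hypothalamus, a difference of 1.34 ± 0.10 (adjusted p = 0.000104). The second Fasn probe gave -0.12 and -0.11, a difference of -0.01 (adjusted p = 0.978). Srebf1, the transcription factor that drives this pathway under insulin, read 1.10, 1.10 and 1.15 in fasted hypothalamus and 0.622 and 0.662 in fasted cerebellum (difference 0.82 ± 0.07, adjusted p = 0.000155). Its second probe, with a wide spread, stood at -0.42 and -0.65 and was not called for the difference (adjusted p = 0.684). Scd2, a desaturase, and Elovl2, an elongase of polyunsaturated fatty acids, stood at 0.07 and 0.05 in hypothalamus and fell in cerebellum by 0.52 and 0.50. Acaca, the first committed enzyme, stood at -0.12 and 0.07 and was not called.

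Cholesterol synthesis genes were called in 5 of 19 (26.3%), 3 more positive and 2 more negative in hypothalamus, while their median difference was -0.10. Sqle, squalene epoxidase, stood at -0.09 in hypothalamus and fell by 1.12 in cerebellum (difference 1.04 ± 0.12). Idi1, isopentenyl diphosphate isomerase, fell by 0.20 and 0.65. Srebf2, the transcription factor of the pathway, fell in cerebellum by 0.50, but its other 2 probes gave differences of the opposite sign, -0.29 (adjusted p = 0.125) and -1.43 (adjusted p = 0.337). Ebp, a sterol isomerase, fell in hypothalamus by 0.33 with 0.19 in cerebellum.

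Genes of fat oxidation and ketone use were called in 6 of 16 (37.5%), 4 more positive and 2 more negative, with a median difference of -0.05. Cpt1a, the enzyme that admits long-chain fatty acids to mitochondria, read 1.23, 1.18 and 1.08 in fasted hypothalamus and 0.633 and 0.603 in fasted cerebellum. Its difference was 0.90 ± 0.09 (adjusted p = 0.000346). Cpt1b, the muscle form, stood at 0.19 in hypothalamus (adjusted p = 0.056) and fell by 0.73 in cerebellum, and Cpt2, the partner enzyme of the inner membrane, stood at 0.11 and fell by 0.42 in cerebellum. Hadhb, a subunit of the trifunctional protein, rose in cerebellum by 0.59 with -0.05 in hypothalamus, which its second probe did not show (difference -0.06, adjusted p = 0.812). The rises of Srebf1 and Cpt1a in hypothalamus were not called with no scaling (adjusted p = 0.0782 and 0.0878), after 75th percentile scaling (0.257 and 0.198), or when any of 6 and 9 single arrays was left out, whereas the differences were.

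Vesicle coat and secretory traffic genes were called in 14 of 42 (33.3%), 10 more positive and 4 more negative in hypothalamus, with a median difference of -0.02. Lman2, a cargo lectin, Copg1, a coatomer subunit, and Tmed2, a cargo receptor, stood between 0.06 and 0.09 in hypothalamus and fell in cerebellum by 0.69, 0.64 and 0.55. Sec61a1, the core of the translocon, fell in both, by 0.29 and 0.89. Synaptic vesicle release genes were called in 9 of 23 (39.1%), 8 more positive and 1 more negative, and here both regions fell, 7 members in hypothalamus and 10 in cerebellum, with none that rose. Syt1, the calcium sensor of release, fell by 0.20 in hypothalamus and 1.27 in cerebellum (difference 1.07 ± 0.08, adjusted p = 8.32e-05). Vamp1, a vesicle SNARE, fell by 0.32 and 1.05, and Nsf, the ATPase that recycles SNARE complexes, by 0.29 and 1.00. Sytl4, granuphilin, fell in cerebellum by 0.47 with 0.15 in hypothalamus. The second Nsf probe did not repeat the difference (-0.09, adjusted p = 0.521), nor did the second Tmed2 probe (0.12, adjusted p = 0.32). In cerebellum the second Nsf probe rose by 0.22 (adjusted p = 0.0361), against the fall at the first.

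Ion channels and receptors differed in both directions. Potassium channel genes were called in 14 of 39 (35.9%), 8 more positive and 6 more negative in hypothalamus. Kcnd3, the Kv4.3 channel of A-type currents, read 0.334 and 0.33 in fasted cerebellum and 0.909, 0.858 and 0.897 in fasted hypothalamus, a difference of 1.41 ± 0.08 (adjusted p = 5.06e-05). Kcnab1, a beta subunit, fell in cerebellum by 0.99. Kcna1, the Kv1.1 channel of axons, changed the other way, reading 0.866, 0.832 and 0.841 in fasted hypothalamus and 1.5 and 1.57 in fasted cerebellum (difference -0.83 ± 0.09, adjusted p = 0.000507). Kcnma1, the large-conductance calcium-activated channel, rose in cerebellum by 0.48 with -0.20 in hypothalamus. The other probes of Kcnd3, Kcnab1 and Kcnma1 were not called for the difference. A Kcnma1 probe among them fell in cerebellum by 0.45 (adjusted p = 0.0232), against the rise at the first, and the last stood at 0.03. Receptor subunits for GABA and glutamate were called in 10 of 33 (30.3%), 6 more positive and 4 more negative. Grm8, a presynaptic glutamate receptor, Gabra2, a GABA-A subunit, and Grik1, a kainate receptor subunit, stood between 0.01 and 0.05 in hypothalamus and fell in cerebellum by 0.65, 0.58 and 0.61. Gabrg3 changed by 0.18 and -0.30, and its second probe was not called for the difference (0.19, adjusted p = 0.209). The hypothalamic call of Gabrg3 and that of Kcna1 were lost without replicate 1 or 2 of the fed or replicate 2 or 3 of the fasted hypothalamus (adjusted p up to 0.0875 and 0.0853), and that of Gabrg3 also with no scaling (0.064) and after 75th percentile scaling (0.321).

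Glial markers gave calls in both directions or few calls. Astrocyte markers were called in 7 of 17 (41.2%), 5 more positive and 2 more negative in hypothalamus, with a median difference of -0.02. Gja1, connexin 43, fell in cerebellum by 0.95 and Slc1a3, the glutamate transporter GLAST, by 0.62, with -0.16 and 0.16 in hypothalamus. Fgfr3, a growth factor receptor, fell in cerebellum by 0.36 and Acsbg1, an acyl-CoA synthetase, by 0.46, and both lost the call for the difference without replicate 1 of the fasted cerebellum (adjusted p = 0.0572 and 0.0519). Oligodendrocyte and myelin markers were called in 3 of 20 (15%), all more negative in hypothalamus. Gjc3, a connexin of myelinating glia, read 0.88, 0.842 and 0.847 in fasted hypothalamus and 1.62 and 1.66 in fasted cerebellum (difference -0.92 ± 0.07, adjusted p = 8.44e-05), though its hypothalamic call was lost without replicate 1 or 2 of the fed or 2 or 3 of the fasted hypothalamus (up to 0.0756). Opalin and Aspa, both of oligodendrocytes, had differences of -0.42 and -0.38 that were lost when any of 7 and 8 single arrays was left out (up to 0.131 and 0.116). Microglia markers were called in 1 of 14 (7.14%), C1qa of the complement cascade (-0.27 and 0.20), which was lost without replicate 1 of the fasted cerebellum (adjusted p = 0.0603).

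Markers of most neurons were called in 5 of 19 (26.3%), 1 more positive (Syt1) and 4 more negative in hypothalamus. Nefm, a neurofilament, fell in hypothalamus by 0.51 with 0.18 in cerebellum (difference -0.70 ± 0.09). Elavl3, an RNA-binding protein of neurons, changed by -0.33 and 0.32, and its cerebellar call was lost without either fasted cerebellum array (adjusted p up to 0.062) and after 75th percentile scaling (0.0564). Uchl1, a neuronal ubiquitin hydrolase, rose in cerebellum by 0.30, with a difference lost without replicate 2 of the fasted cerebellum (adjusted p = 0.0693).

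Mitochondrial respiratory chain and ATP synthase subunits, which carry out oxidative phosphorylation, were called in 13 of 63 (20.6%), 12 more negative and 1 more positive in hypothalamus, with a median difference of -0.14. In hypothalamus 13 fell and none rose, and in cerebellum 2 fell and 1 rose. Atp5g2, a subunit of the proton-carrying ring of ATP synthase, read 0.861, 0.845 and 0.859 in fasted hypothalamus and 1.21 and 1.23 in fasted cerebellum (difference -0.53 ± 0.09, adjusted p = 0.0051). Cox6b1, of cytochrome oxidase, fell in hypothalamus by 0.47 with 0.02 in cerebellum. Ndufs4, of complex I, had a difference of -0.44 with neither region called, and Ndufs1, the largest subunit of that complex, went the other way, falling by 0.32 in cerebellum. Without either fasted cerebellum array the 12 became 6, and the calls of Cox6b1, Ndufs4 and Ndufs1 were lost when any of 7, 4 and 6 single arrays was left out (adjusted p up to 0.0956, 0.0727 and 0.101). The opposite call of Atp5g2 was lost when any of 8 was left out.

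Cytosolic ribosomal protein genes were called in 4 of 54 (7.41%), all 4 more negative in hypothalamus, against 7.74% of all named genes in that direction. Rplp1, of the ribosomal stalk, rose in cerebellum by 0.50 with -0.10 in hypothalamus, and Rpl29, Rpl22 and Rps10, proteins of the large and small subunits, had differences of -0.34, -0.30 and -0.26. The 4 became 2 without replicate 1 and 1 without replicate 2 of the fasted cerebellum, and 2 after 75th percentile scaling. Rpl22 was lost when any of 9 single arrays was left out, Rpl29 without either fasted cerebellum array and Rps10 without replicate 2 of the fasted cerebellum (adjusted p up to 0.113, 0.064 and 0.0586). The other probes of Rpl22 (-0.14 and -0.13) and Rpl29 (0.06) were not called for the difference. Proteasome subunits were called in 5 of 31 (16.1%), 4 more negative and 1 more positive (median difference -0.21). Psmd2, a base subunit of the regulatory particle, stood at 0.05 and fell by 0.77 in cerebellum. Psmb1 and Psmb5 of the catalytic core and Psmd13 of the lid had differences of -0.46, -0.41 and -0.40. These were lost when any of 10 arrays was left out for Psmb1, any of 9 for Psmd13 and replicate 1 of the fasted cerebellum for Psmb5 (adjusted p up to 0.087, 0.14 and 0.0769). Cytosolic heat shock chaperones were called in 3 of 18 (16.7%). Hsph1, a partner of HSP70, stood at -0.04 and fell by 0.82 in cerebellum. Hspa4l, a related exchange factor, fell by 0.25 and 0.65, and Ahsa1, an activator of HSP90, fell in hypothalamus by 0.28 with 0.06 in cerebellum. The last 2 were lost when any of 8 and 4 single arrays was left out (adjusted p up to 0.103 and 0.0782).

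Circadian clock genes were called in 5 of 20 (25%), 3 more positive and 2 more negative in hypothalamus, and 3 of the 20 had opposite changes, Per3, Csnk1e and, noted after its values were seen, Bhlhe41, a repressor of the clock (0.20 and -0.18). Csnk1e, a kinase that marks period proteins for degradation, read 0.839, 0.864 and 0.773 in fasted hypothalamus and 1.22 and 1.42 in fasted cerebellum (difference -0.71 ± 0.11, adjusted p = 0.00322), with a regional call lost when any of 6 single arrays was left out (up to 0.0954). Per2 and Bhlhe40, another repressor, stood at -0.01 and -0.02 in hypothalamus and fell in cerebellum by 0.61 and 0.62. Per2 and the called Per3 probe thus differed between regions in opposite directions. The other Per3 probes, with differences of -0.28 and 0.33, were not called. Immediate early genes, which neurons switch on within minutes of activity, were called in 4 of 18 (22.2%), 2 in each direction. Egr1 stood at 0.14 in hypothalamus and fell by 0.70 in cerebellum (difference 0.84 ± 0.09, adjusted p = 0.000523). Nr4a3, an orphan nuclear receptor, fell by 0.25 and 0.69 at 1 probe and stood at 0.03 and 0.05 at the other (difference adjusted p = 0.919), Jun fell in hypothalamus by 0.31 with 0.09 in cerebellum, and Junb rose in cerebellum by 0.45 with 0.07 in hypothalamus.

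Genes known to be raised by glucocorticoids were called in 11 of 24 (45.8%), 5 more positive and 6 more negative in hypothalamus, with a median difference of -0.01. In cerebellum 9 rose and 2 fell, and in hypothalamus 5 rose and 1 fell. Cdkn1a, the cell cycle inhibitor p21, and Map3k6, a stress kinase, rose in cerebellum by 0.59 and 0.68 and stood at -0.03 and 0.12 in hypothalamus. Mertk, a receptor for the clearance of dead cells, fell in cerebellum by 0.43 with 0.11 in hypothalamus. Plin4, a lipid droplet coat protein, rose in both, reading 2.82, 2.68 and 2.90 in fasted hypothalamus and 1.91 and 1.93 in fasted cerebellum. Its difference of 0.49 ± 0.12 (adjusted p = 0.0222) was lost without replicate 2 of the fed hypothalamus, replicate 3 of the fasted hypothalamus or either fasted cerebellum array (up to 0.0701) and with a variance trend (0.13), and its second probe was not called (0.22, adjusted p = 0.39). Sult1a1, a phenol sulphotransferase, rose by 1.04 and 0.74 with no call for the difference (0.29 ± 0.11, adjusted p = 0.108).

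Of 8 measured peptides of the arcuate feeding circuit, 3 were called for the difference (37.5%), while none of the 8 was called in hypothalamus in either direction (Agrp was not analysed here). Pomc, the precursor of alpha-MSH and ACTH, read 1.08, 1.07 and 1.03 in fasted and 0.992 to 1.06 in fed hypothalamus, and 2.62 and 2.42 in fasted cerebellum against 0.987 to 1.04 when fed. Its difference of -1.26 ± 0.07 (adjusted p = 3.98e-05) came with no call in hypothalamus. Cartpt, a peptide that restrains feeding, stood at -0.07 in hypothalamus and fell by 0.60 in cerebellum (difference 0.53 ± 0.09). Gal, galanin, fell in cerebellum by 1.61 with 0.06 in hypothalamus, and its difference, 1.67 ± 0.44, was lost when any of 7 single arrays was left out (adjusted p up to 0.0714). Npy stood at 0.03 and -0.24, and its difference of 0.26 ± 0.16 was not called (adjusted p = 0.29). Other hypothalamic neuropeptides and hormones were called in 3 of 21 (14.3%), all more negative in hypothalamus. Cck, cholecystokinin, read 0.591, 0.641 and 0.632 in fasted hypothalamus and 1.14 and 1.33 in fasted cerebellum, where the fed arrays, 0.984 to 1.2, overlapped the fasted ones (difference -0.97 ± 0.16, adjusted p = 0.00427). Vgf, a precursor of several peptides, and Ucn, urocortin, fell in hypothalamus by 0.44 and 0.37, with -0.04 and 0.01 in cerebellum. The other 2 Vgf probes gave differences of -0.27 (adjusted p = 0.144) and 0.09 (adjusted p = 0.68).

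Appetite and energy balance receptors were called in 4 of 17 (23.5%), 1 more positive and 3 more negative in hypothalamus. Ntrk2, the receptor of brain-derived neurotrophic factor, fell in hypothalamus by 0.35 with 0.13 in cerebellum (difference -0.48 ± 0.06, adjusted p = 0.00111), and 1 of its other 3 probes was called in the same direction, with opposite changes of -0.31 and 0.27 (difference -0.58, adjusted p = 0.000655). Bdnf, its ligand, had a difference of -0.34 with neither region called, lost when any of 9 single arrays was left out (adjusted p up to 0.138). Hcrtr1, an orexin receptor, fell in hypothalamus by 0.20, and its difference was lost without replicate 1 of the fed or either of the fasted cerebellum arrays (up to 0.0685). Cnr1, the cannabinoid receptor of brain, fell in cerebellum by 0.24, lost without replicate 1 of the fasted cerebellum (0.0659), and its second probe was not called for the difference (0.40, adjusted p = 0.102).

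Pituitary, red cell and Hox genes were read as lists of tissue mostly outside both dissections or of their blood. Pomc, on the pituitary list, is also a gene of arcuate neurons within the hypothalamus. Pituitary markers were called in 2 of 11 (18.2%), 1 each way: Pomc, and Prl, prolactin, which read 12.8, 12.3 and 11.5 in fasted hypothalamus and 8.72 and 8.55 in fasted cerebellum against 0.951 to 1.10 on all fed arrays. Prl rose by 3.60 and 3.07, and the difference between regions was small beside either rise (0.53 ± 0.10, adjusted p = 0.0064), and with a variance trend the difference was not called (adjusted p = 0.731). Red cell genes were measured in 4 of 10 members, of which Alas2, the haem synthesis enzyme of red cell precursors, was called (0.70 and 0.34). Hox genes, which pattern the body behind these brain regions, were called in 3 of 33 (9.09%), all more positive in hypothalamus. Hoxa5 changed by 0.22 and -1.26 (difference 1.48 ± 0.09, adjusted p = 4.94e-05), with a hypothalamic rise not called under no scaling (0.0698), 75th percentile scaling (0.261) or when any of 9 single arrays was left out. Hoxd13 and Hoxc13 rose in hypothalamus by 0.29 and 0.33, with differences lost when any of 6 and 8 single arrays was left out (adjusted p up to 0.0662 and 0.105), and the second Hoxd13 probe gave a difference of -2.90 ± 0.93 (adjusted p = 0.0625). Xist, the RNA that silences an X chromosome in females, stood at -0.00 in hypothalamus and fell by 0.49 in cerebellum, while its second probe gave a difference of -0.24 (adjusted p = 0.332).

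Among 2998 genes with several probes, whose positions in the transcript are not known here, the probe of smallest spread was called for the difference in 734. The next probe had the same sign in 453 of these (61.7%), was called with the same sign in 110 (15%) and was called with the opposite sign in 35. The median difference was 0.399 at the first probe and 0.0849, in the same direction, at the next. Where the first probe differed by at least 1.5-fold, 184 genes, the next was called with the same sign in 27 (14.7%) and with the opposite sign in 4. In most of these genes the next probe was thus not called. Among all 34999 probes 17.7% were called, 8.66% with a positive difference and 9.01% with a negative one. Calls of both signs together were about as frequent at the next probe as among all probes. Those of the same sign, 15% and 14.7%, exceeded the share of either sign among all probes. These shares were not tested against each other. A call given above for a gene holds for its named probe, unless another probe is given.

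Of the 6184 calls, 3261 (52.7%) stayed with any 1 array left out, and 115 (1.86%, 82 named genes) stayed under all 21 alternatives. Of those 82, 71 were more positive and 11 more negative in hypothalamus. By the classes of the main fit, cerebellum alone fell in 50 of them, and 6 fell in both regions with the larger change in cerebellum. The rest had opposite changes in the main fit, 15 with hypothalamus higher and 11 with hypothalamus lower. Both quantile alternatives left no opposite call, so for these genes only the difference held under all alternatives. The quantile alternatives give the narrow fed arrays, which are ratios to their own median, and the wider fasted arrays 1 distribution. Among the genes named above, 21 were in this set: Slc1a2, Cask, Rbfox2 and Septin11 on the negative side, and Cbln3, Itih2, Slc47a1, Ogn, Slc22a4, Slc30a5, Axl, Clvs1, Hacd3, Pcsk6, Sgpp1, Hyou1, Canx, Fasn, Syt1, Hoxa5 and Kcnd3 on the positive side. For every other gene that the naming rules gave with a call, 1 or both of the quantile alternatives ended the call for the difference. Only the named probe of each gene was followed. Other probes of Slc1a2, Rbfox2, Pcsk6, Canx, Fasn and Kcnd3 were not called for the difference, and a Cask probe was called with the opposite sign.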

How the data were processed

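RNA pools of hypothalamus and cerebellum from fed and fasted mice were measured on 11 arrays. The deposited values are linear ratios, for which the authors divided each probe by the median of the fed arrays of its region (tested on the file, tolerance 1e-06). Software, background correction and scaling: not given in the sources used here. The lowest deposited ratio was 0.01. Ratios were scaled by the array median, floored at 0.1 and put on the log2 scale. limma 3.58.1 (R 4.3.3) fitted 4 group means over all arrays (7 residual and 1.82 prior degrees of freedom), with Benjamini-Hochberg adjustment over 34999 probes. The number of arrays limits the precision. The fit was tested on simulated data. The platform annotation gave 21590 probes 1 symbol, 681 several and 12728 none, and 21462 matched the GRCm38.p6 gene table by Entrez identifier.

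Genes were named by rule: 8 each way with opposite changes and the largest smaller change, 8 each way with a difference of at least 1 and the largest moderated t (arrays apart, ratios of 0.1 to 10), up to 4 called members per list, and Prl, Pomc, Npy, Cartpt, Plin4, Sult1a1 and Xist. The rules, the members and the 31 lists were chosen with earlier results of these data known. Alternatives varied scaling, floor, filter, variance prior, weights, replicate block and single arrays. Nothing was left out except probes without 1 symbol when naming genes.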

Additional observations from a re-analysis of the deposited data

Results flagged for a closer look

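The fasting change differed between the hypothalamus and cerebellum pools at 6184 probes by the test of the difference itself. The genes named for that difference are repeated here with their log2 difference, hypothalamus minus cerebellum, at the named probe. Other probes of several of these genes, given above, did not show it. The change was upward in hypothalamus and downward in cerebellum for Cbln3 (2.69), Ogn (1.87), Itih2 (1.76), Slc47a1 (1.26), Slc22a4 (1.24), Map7 (1.07), Mbtps1 (0.92), Med12 (0.82), Slc30a5 (1.84) and Axl (1.41). It was downward in hypothalamus and upward in cerebellum for Diaph3 (-3.90), 1700095A13Rik (-3.70), 1700030M09Rik (-3.23), Slc1a2 (-2.51), Fam71f1 (-2.01), Gm16835 (-1.93), Prss43 (-1.54), 4930431F12Rik (-1.53), Slc25a27 (-1.27), Cask (-1.25), Septin11 (-1.18), Rbfox2 (-1.17), 9530059O14Rik (-1.16) and Per3 (-1.11). A fall called in cerebellum and not in hypothalamus gave Pcsk6 (1.67), Hacd3 (1.54), Sgpp1 (1.39), Clvs1 (1.28), Cartpt (0.53) and Xist (0.49). A rise called in cerebellum and not in hypothalamus gave Pomc (-1.26). Both regions rose, hypothalamus by more, for Prl (0.53) and Plin4 (0.49). Groups of 2 and 3 arrays are too small for a test of single outlying arrays.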

How the results depend on the processing

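Signs of the difference stayed the same for all 136 probes of named genes under 20 alternatives, and for 135 under the filter on extreme ratios, which left out Prl. Of the 134 called, 110 lost it after quantile normalization of the 11 arrays together, 112 after quantile normalization of each region alone, 25 without at least 1 array, 5 with 75th percentile scaling (Rpl29, Rpl22, Bdnf, Aspa and Psmb1) and 2 with a variance trend (Plin4 and Prl). Quantile normalization of all arrays together and of each region left 153 and 128 of 6184 calls for the difference, 149 and 126 of 2064 calls of at least 1.5-fold, and 0 and 0 opposite calls in either direction. Those alternatives give fed and fasted arrays 1 distribution. The 222 probes with hypothalamus higher and cerebellum lower became 135 with 75th percentile scaling and 437 with array weights, and the 458 of the reverse kind became 705 with array weights; the cause was not tested. With any 1 array left out, the calls ran from 4351 (without replicate 1 of the fasted cerebellum) to 6307, those of at least 1.5-fold from 1929 to 2519, the opposite calls with hypothalamus higher from 92 (without replicate 2 of the fasted hypothalamus) to 239, and those with hypothalamus lower from 211 (without replicate 2 of the fed hypothalamus) to 509. Where this left 1 fasted cerebellum array, that array is assumed to vary like the other groups. The same pair of quantile alternatives left 2 and 2 of 6 calls of ER chaperones and stress genes, 1 and 1 of 6 of fatty acid synthesis, 2 and 1 of 14 of connective tissue markers and 0 and 0 of 12 of thalamus markers.

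Replicate numbers are shared between groups, and the deviations of same-numbered arrays correlated weakly, at -0.0383 to 0.0953 over 15 pairs. Between fed and fasted hypothalamus same-numbered arrays gave 0.0717 to 0.0953, above the others at -0.0877 to 0.00594. Between fed and fasted cerebellum they gave 0.0404 and -0.0201, within the range of the others (-0.058 to 0.058). What the number stands for is not known here, and the main fit did not pair arrays by it. A fit with the replicate block called 5934 probes, 5310 of them among the 6184, and 692 opposite probes; Plin4, Ndufs4, Rpl22, Gal, Psmb1 and Psmd13 lost the call for the difference, and with the block Gm16835 lost its hypothalamic call (adjusted p = 0.0561) and Prss43 its cerebellar call (0.0526). Ratios without intensities do not show which probes were near background.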
